A study of Mus musculus with 8 samples.

Results

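The kynurenine pathway breaks down tryptophan, and 1 of its branches feeds the synthesis of NAD, the redox cofactor. In that branch *Kmo*, *Kynu* and *Haao* lead to aminocarboxymuconate semialdehyde, an intermediate that closes by itself to quinolinate, from which *Qprt* starts the making of NAD. *Acmsd* decarboxylates the same intermediate and so draws it away from quinolinate, and *Aadat* turns kynurenine into kynurenate, which leaves the NAD branch. The proximal tubule (PT) is, beside the liver, known as a main site of this pathway.

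The 10 genes described here were *Tdo2*, *Afmid*, *Kmo*, *Kynu*, *Haao*, *Aadat*, *Acmsd*, *Qprt*, *Nadsyn1* and *Nampt*, of 32285 genes in the count matrix, and each was found by its symbol. They were chosen by their pathway together with values already known from the same cells, namely their levels by cluster and their differences between the genotypes. The fit across all genes is therefore given for them as a description, and its adjusted p is no independent evidence. The cells came from 1 pool of embryonic kidneys, of which 4 male mice are named by tag. A further 4508 barcodes of the pool carried tags without a name and were set aside. Mice 1 and 2 were Trim28Δ/Δ (the ko tags), in which Cre driven by Six2 deletes floxed *Trim28* in nephron progenitors and hence in their descendants, and mice 3 and 4 were Trim28f/f controls (the wt tags), which carry the floxed allele undeleted. The labels give embryonic day 17.5, while the study's text and figure legends give a later day for the single-cell kidneys. Each mouse is 1 replicate.

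Oligonucleotide tags assigned 7363 cells to the mice, namely 1316, 1491, 2749 and 1807 to mice 1 to 4, with 25761268 to 52777501 unique molecular identifiers (UMIs, counts of captured RNA molecules) a mouse. Of 23 clusters, 22 were named from marker genes, giving 16 named classes. *Trim28*, the targeted gene, stood at 27.6 and 24.1 CPM (UMIs of a gene in a sum scaled to 1000000 UMIs) in nephron progenitor (NPC)-like cells of mice 1 and 2 and at 139 and 160 in mice 3 and 4. In stroma-like cells, which do not descend from Six2 progenitors, it stood at 105 and 101 against 83.8 and 112, so the tags and the genotypes go together. Mouse 3 stood apart, since collecting duct-like cluster 15 held 175 of its cells among 176 in all.

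PT-like cells were 994 in clusters 2 and 6, with 314, 346, 149 and 185 cells in mice 1 to 4, which is 23.9%, 23.2%, 5.42% and 10.2% of the cells of each mouse. All 8 PT markers had their highest mean level in this class, which was named from these same markers. Cluster 2 (601 cells) was led by *Spp2*, *Fbp1*, *Gsta2*, *Nat8f1* and *Gatm*. Cluster 6 (393 cells) was led by *Aadat* itself, followed by *Cryab* and *Serpina6*, and none of its 10 leading genes was a PT marker. *Slc34a1*, the phosphate transporter of the convoluted PT, averaged 1153 CPM in cluster 2 and 344 CPM in cluster 6. *Slc22a13*, an organic anion transporter listed for the straight PT, averaged 82.5 and 121 CPM, and *Napsa*, an aspartic protease listed for the same segment, 696 and 593 CPM. Of the other genes listed for the straight PT, *Acy3* averaged 147 and 61.5 CPM and *Slc7a13* 94.6 and 100 CPM. Cluster 6 thus held less convoluted PT marker RNA, while the straight PT genes went both ways between the clusters.

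The start region of *Aadat* is shown because this gene led cluster 6 and was highest in PT-like cells. The line gives the 250 bases before the start of the RefSeq entry, 5′ to 3′ on the strand of the gene, from RefSeq on GRCm38.p6, where 9 of the 10 genes had an entry. Capitals mark a match to consensus letters of Hnf4 (CAAAGTCCA, CAAAGTTCA or CAAAGGTCA), a transcription factor of the PT, on either strand.
*Aadat*, chr8:60505874-60506123, plus strand: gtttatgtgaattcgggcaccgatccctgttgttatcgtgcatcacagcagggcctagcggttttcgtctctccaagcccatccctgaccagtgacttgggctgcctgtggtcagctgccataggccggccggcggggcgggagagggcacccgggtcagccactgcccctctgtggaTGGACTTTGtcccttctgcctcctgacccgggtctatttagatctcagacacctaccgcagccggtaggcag

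The letters lay on the reverse strand, starting 72 bases before the RefSeq start. In GENCODE M21 the gene starts at 60505932, so 192 of the 250 bases, the match among them, lie within the gene by that annotation. A match was found in 1 of the 9 genes with an entry, and 1.14% of all 32851 promoters held one. A match is a description of the letters only, and no binding was measured in these cells.

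Across the 16 named classes, 6 of the 10 genes had their highest mean level in PT-like cells, namely *Afmid*, *Kynu*, *Haao*, *Aadat*, *Acmsd* and *Qprt*. Levels are CPM of the UMIs summed per mouse and class, and are compared between classes for 1 gene at a time. In bulk sums of a class, fewer expressing cells and less RNA per cell cannot be told apart.

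**Figure D1:**
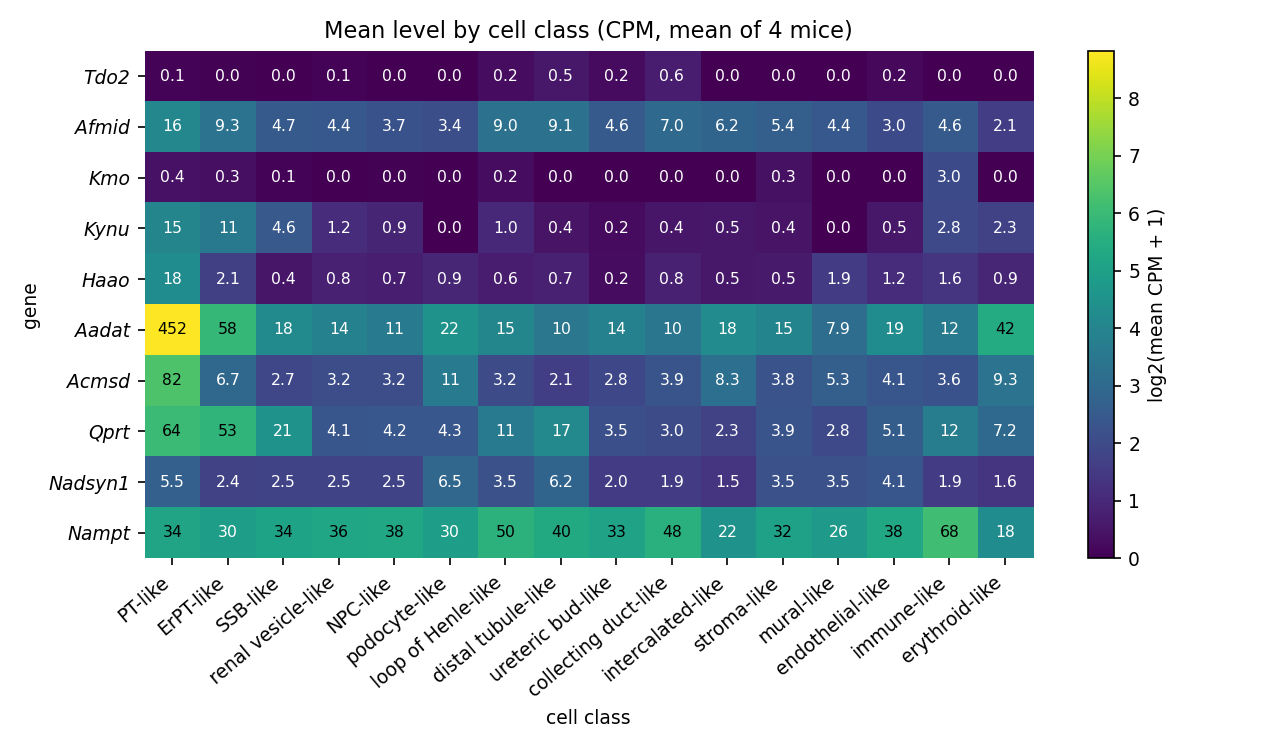
Mean CPM over 4 mice, both genotypes together, of each gene (rows) in each named class (columns), with colour showing log2(mean CPM + 1) and the printed number the mean CPM. *Aadat* and *Acmsd* peak in PT-like cells at 452 and 82, *Qprt* is nearly as high in ErPT-like as in PT-like cells, and *Nampt* is present in every class.

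*Aadat*, which makes kynurenate and also uses aminoadipate in lysine breakdown, averaged 452 CPM in PT-like cells (SD 190, n = 4 mice). The next class, early PT (ErPT)-like cells, averaged 58.3 CPM (SD 27.3, n = 4), and no mouse of one class overlapped the other. Below ErPT-like cells no class was separated from its neighbour in the order. In the 13 remaining classes apart from erythroid-like cells the mean ran from 7.89 to 22.1 CPM. Free RNA, read from barcodes with 10 to 100 UMIs, held *Aadat* at 83.6 CPM. Scaled by the haemoglobin in each class it would give 2.01 to 28.8 CPM in those classes, and the mean lay above that in 10 of the 13. In intercalated-like cells the mean was 18.3 CPM beside 2.01, and in mural-like cells 7.89 CPM beside 28.8. With cells assigned by tag share and clustered anew, the cluster led by *Aadat* took the ErPT-like name, and *Aadat* then averaged 500.3 CPM in ErPT-like and 274 CPM in PT-like cells.

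*Acmsd* averaged 81.9 CPM in PT-like cells (SD 51.9, n = 4), with means of 127 CPM in Trim28Δ/Δ mice and 37.2 CPM in controls. Even the lowest mouse in PT-like cells, at 31.1 CPM, lay above the highest podocyte-like value of 19.7 CPM. Podocyte-like cells were next with a mean of 11.1 CPM from 24 UMIs in all, and ErPT-like cells averaged 6.67 CPM. In the 13 classes *Acmsd* averaged 2.09 to 11.1 CPM, beside 0.516 to 7.38 CPM that free RNA would give.

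*Haao*, the dioxygenase that makes the branch-point intermediate, averaged 18.4 CPM in PT-like cells (SD 6.46, n = 4) and 2.15 CPM in ErPT-like cells (SD 0.863, n = 4), with no overlap. *Kynu*, the kynureninase upstream of it, averaged 15.2 CPM (SD 4.14) in PT-like cells and 10.8 CPM (SD 1.996) in ErPT-like cells, which overlapped. Both lay apart from S-shaped body (SSB)-like cells at 4.58 CPM (SD 0.925). *Qprt* showed the same order, with 64.4 CPM (SD 9.05) in PT-like, 53.4 CPM (SD 9.44) in ErPT-like and 21.4 CPM (SD 8.20) in SSB-like cells, the first 2 overlapping and the third below them. *Kynu* and *Qprt* were thus already near their PT-like level in ErPT-like cells, where *Haao*, *Acmsd* and *Aadat* were not.

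*Afmid*, the formamidase that yields kynurenine, averaged 16.1 CPM in PT-like cells (SD 2.14) and stood at 9.26, 9.08 and 8.99 CPM in ErPT-like, distal tubule-like and loop of Henle-like cells, which overlapped each other. *Nadsyn1*, the last enzyme of this route, showed no separated class. Its mean was 6.52 CPM in podocyte-like cells (SD 5.25, 10 UMIs in all), 6.16 CPM in distal tubule-like and 5.55 CPM in PT-like cells. *Nampt*, the rate-limiting enzyme of NAD salvage from nicotinamide, was highest in immune-like cells at 68.2 CPM (SD 12.4), followed by loop of Henle-like cells at 50.2 CPM (SD 35.5), and these overlapped. In loop of Henle-like cells mouse 3 stood at 103 CPM and mice 1, 2 and 4 at 28.6, 32.4 and 36.4 CPM. PT-like cells averaged 34.2 CPM of *Nampt*.

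The first committed steps were nearly absent. *Tdo2*, the tryptophan dioxygenase of the liver, gave 2 UMIs in all PT-like cells and at most 0.649 CPM in any class. *Ido1* and *Ido2*, the other dioxygenases, gave 0 UMIs in PT-like cells. *Kmo*, the hydroxylase that commits kynurenine to the NAD branch, gave 11 UMIs in PT-like cells, or 0.359 CPM, and stood higher in immune-like cells at 2.95 CPM (SD 1.88, n = 4, 7 UMIs in all), where all 4 mice lay above the PT-like values, though from very few molecules. Neither gene passed the count filter in PT-like cells, so 8 of the 10 were tested there. With no filter neither was called (adjusted p = 0.771 for *Kmo* and 0.904 for *Tdo2*).

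Genes with the most similar profile over the 16 classes were sought among 10297 genes of at least 20 CPM in some class, by Pearson's r of log2(CPM + 10), a description across classes that share their libraries. *Aadat* was most like *Slc13a1* (r = 0.989), *Defb19* and *Prodh2*, *Acmsd* like *Slc6a20b* (r = 0.981), *Slc22a19* and *Mfsd4b5*, and *Qprt* like *Amn* (r = 0.940), *Slc39a5* and *Eaf2*. *Nampt* was most like *Zfp263* with r = 0.872. The other 6 members did not reach 20 CPM in any class and were not compared, and none of these 4 was among the closest 3 of another.

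The genotypes were compared in PT-like cells on the UMIs summed per mouse, with edgeR's quasi-likelihood test over 12454 genes. Of all genes tested 62 had an adjusted p under 0.05, or 0.498%, of which 50 were higher and 12 lower in Trim28Δ/Δ cells. Among the 8 members tested, 1 was called, namely *Acmsd*. In 39.6% of all genes tested the values of the genotypes did not overlap, and this was so for 4 of the 8 members, *Acmsd* and *Aadat* with higher and *Kynu* and *Nampt* with lower values in Trim28Δ/Δ cells. The median log2 change of the 8 was 0.09, beside -0.01 over all genes.

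*Acmsd* stood at 127 and 126 CPM in mice 1 and 2 and at 43.2 and 31.1 CPM in mice 3 and 4. Both Trim28Δ/Δ mice were nearly equal and far above both controls. The log2 change was 1.75 (SE 0.17), a 3.36-fold higher level, with an adjusted p of 0.0130 by edgeR and of 3.8e-13 by DESeq2. Without mouse 1 the change stayed at 1.74 while the adjusted p was 0.123, and it was under the threshold without any 1 of the others. By p *Acmsd* was number 13 of the genes tested, and 33 of the 50 genes that rose had a larger log2 change. In these cells *Trim28* fell by 1.51 on the log2 scale (SE 0.16, adjusted p = 0.0169).

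**Figure D2:**
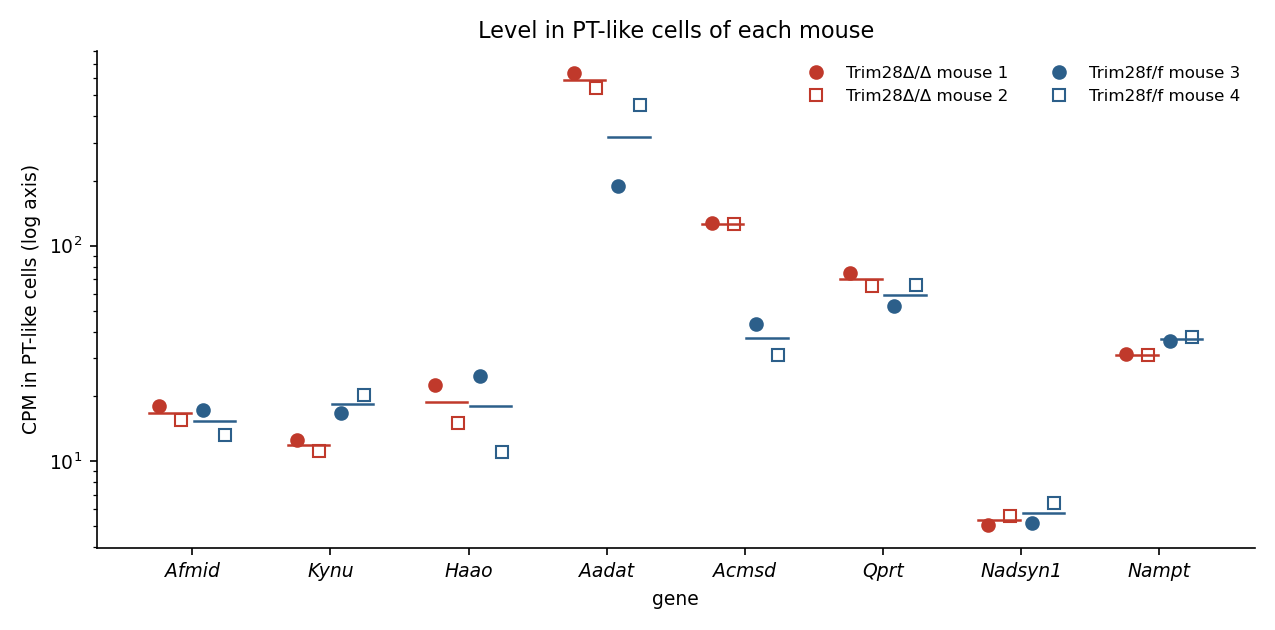
CPM in PT-like cells (log axis) of the 8 genes tested, with 1 point per mouse (red Trim28Δ/Δ, blue Trim28f/f) and a line at each genotype's mean. The *Acmsd* points of mice 1 and 2 lie at 127 and 126 against 43.2 and 31.1, while the *Aadat* controls are spread from 190 to 448.

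The 2 clusters of the class differed in *Acmsd*. The members were not kept out of the genes used for clustering, and clustering without them was tested for the whole class only. Values within a cluster are therefore a description. In cluster 2 it stood at 186 and 205 CPM in the Trim28Δ/Δ mice and at 43.4 and 45.1 CPM in the controls. This was higher by 2.14 on the log2 scale (SE 0.14, edgeR adjusted p = 4.5e-04), beside 0.452% of genes called. In cluster 6 it stood at 13.3 and 13.0 CPM against 42.2 and 6.70 CPM, a log2 change of -0.37 (SE 0.64, adjusted p = 0.948), beside 0.307% of genes called. The value of 42.2 CPM comes from mouse 3, which had only 20 cells in cluster 6. Against mouse 4 alone both Trim28Δ/Δ mice were higher in cluster 6, so the direction there rests on mouse 3. The difference of the changes was 2.49 on the log2 scale (SE 0.56), with an unadjusted p of 5.1e-04 and an adjusted p of 0.169 in edgeR's interaction test, so it did not pass the threshold. Of the 8 members 0 were called in that test, beside 0.0502% of all genes, and 4 had an unadjusted p under 0.05, beside 5.68% of all genes.

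**Figure D3:**
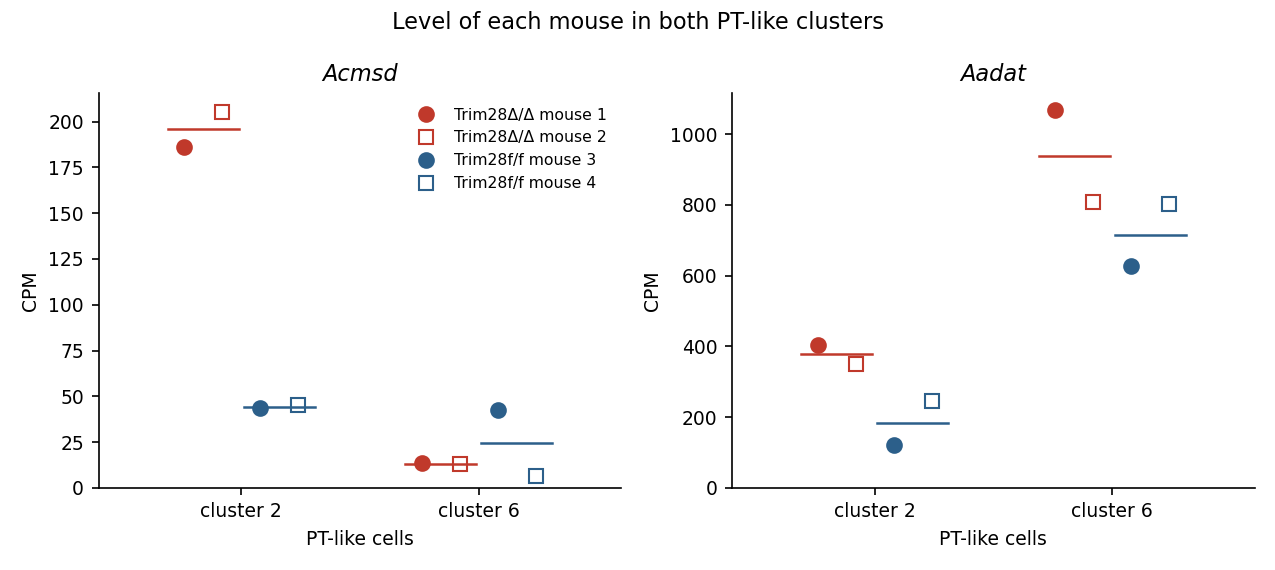
CPM of *Acmsd* (left) and *Aadat* (right) in each PT-like cluster, with 1 point per mouse (red Trim28Δ/Δ, blue Trim28f/f) and lines at genotype means. In cluster 2 *Acmsd* is at 186 and 205 against 43.4 and 45.1, while in cluster 6 3 of the 4 mice are at 13.3 or below.

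The share of cells with an *Acmsd* UMI moved with the level. To compare cells of unequal depth, each was thinned at random to 6891 UMIs. In cluster 2 the share was then 58.3% and 63.8% of cells in mice 1 and 2 and 16.3% and 24.1% in mice 3 and 4, with exact 95% intervals of 50.9 to 65.4%, 56.3 to 70.9%, 10.4 to 23.8% and 16.4 to 33.3%. Before thinning the shares were 80.7%, 87.0%, 30.2% and 38.9%, at median depths of 22473 to 27888 UMIs. In NPC-like cells, which should lack the gene, 2.07% to 4.26% of thinned cells had a UMI, at median depths of 16905 to 19074 UMIs. Cells of cluster 2 that had a UMI after thinning held 2.20 and 2.32 UMIs on average in mice 1 and 2 and 1.95 and 1.62 in mice 3 and 4. At this depth the share and the UMIs per positive cell are not independent of each other. In cluster 6 the thinned shares were 7.09% and 10.7% in mice 1 and 2 and 3.90% in mouse 4, with 3 of 20 cells in mouse 3, and their intervals overlapped.

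*Aadat* stood at 631 and 540 CPM in PT-like cells of mice 1 and 2 and at 190 and 448 CPM in mice 3 and 4. The controls lay further apart from each other than mouse 4 did from mouse 2, and the log2 change of 0.86 (SE 0.33) had an adjusted p of 0.452. Without mouse 4 the log2 change was 1.57, with mouse 3, the lower control, as the only control left. Without mouse 3 it was 0.38. Cluster 6 made up 40.4%, 48.8%, 13.4% and 41.6% of the PT-like cells of mice 1 to 4, and mouse 3, with the smallest share, had the lowest *Aadat*. Within cluster 6, which *Aadat* itself led and which was made without keeping it out, *Aadat* stood at 1068 and 809 against 626 and 803 CPM (log2 change 0.36, adjusted p = 0.729). Within cluster 2 it stood at 405 and 351 against 122 and 246 CPM (log2 change 1.04, adjusted p = 0.203). The share of thinned cells of cluster 2 with an *Aadat* UMI was 59.4% and 54.2% against 51.2% and 50.9%, with overlapping intervals, and 2.74% to 7.91% in NPC-like cells. Cells with a UMI held 4.30 and 4.41 UMIs on average in mice 1 and 2 and 1.76 and 2.78 in mice 3 and 4.

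*Kynu* stood at 12.6 and 11.2 CPM in mice 1 and 2 and at 16.8 and 20.3 CPM in mice 3 and 4. The log2 change of -0.67 (SE 0.19) had an unadjusted p of 0.0077 and an adjusted p of 0.274 by edgeR. *Qprt* stood at 74.4 and 65.4 against 52.4 and 65.4 CPM (log2 change 0.22, SE 0.14), and *Haao* at 22.5 and 15.04 against 24.9 and 11.1 CPM (log2 change 0.06, SE 0.37), both overlapping. The step on either side of the intermediate that *Acmsd* uses thus gave no call, with *Haao* the less precise. The log2 change of *Haao* was 0.75 without mouse 3 but turned to -0.27 without mouse 1 and to -0.47 without mouse 4. *Afmid* had a log2 change of 0.12 (SE 0.21), *Nadsyn1* of -0.15 (SE 0.26) and *Nampt* of -0.27 (SE 0.13, adjusted p = 0.577).

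Outside PT-like cells, 47 tests of members were made in 16 classes, the unnamed cluster 14 included. By edgeR 0 were called, beside 0.285% of all genes in those classes, and 10 had an unadjusted p under 0.05, beside 6.29% of all genes. Of these 10, 6 were *Nampt*, which was lower in Trim28Δ/Δ cells in all 12 classes where it was tested, by 0.39 to 1.40 on the log2 scale. Its smallest adjusted p was 0.067, in distal tubule-like cells, where it stood at 26.3 and 22.5 CPM against 71.8 and 39.8 CPM. Mouse 3 held the highest *Nampt* value in 15 of 17 classes, and mouse 4 lay above both Trim28Δ/Δ mice in 8 of the 12. The other 4 were all higher in Trim28Δ/Δ cells. *Aadat* stood at 36.0 and 31.7 against 10.2 and 10.4 CPM in podocyte-like cells, from 29 UMIs in all. In cluster 14 it stood at 17.1 and 77.5 against 13.1 and 12.8 CPM. Free RNA scaled by haemoglobin would give 17.9 CPM of *Aadat* in podocyte-like cells and 12.1 CPM in cluster 14, so these values lie near that floor. *Qprt* stood at 31.6 and 24.3 against 16.5 and 13.3 CPM in SSB-like cells (unadjusted p = 0.0054, adjusted p = 0.484 by edgeR). In ErPT-like cells *Acmsd* stood at 8.22 and 9.61 CPM against 3.31 and 5.53 CPM, the same order as in PT-like cells at a much lower level (log2 change 1.08, SE 0.41, adjusted p = 0.579). In a joint edgeR fit of both classes with mouse as a block, the *Acmsd* change in PT-like cells exceeded that in ErPT-like cells by 0.57 (SE 0.39). This is not the plain difference of the changes from the separate fits. Of the 8 members 0 were called in this interaction test, beside 0.118% of all genes, and 1, *Aadat*, had an unadjusted p under 0.05, beside 6.11% of all genes.

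The 74 other genes listed were those of the pathway and its surroundings, together with PT regulators and genes of the convoluted and straight PT. Of these, 60 were tested in PT-like cells and 0 were called by edgeR. With an unadjusted p under 0.05 there were 11 of the 60, beside 9.68% of all genes. They were 3 with higher and 8 with lower values in Trim28Δ/Δ cells. Of the 8, 4 were convoluted PT genes, and of the 3, 1 was a straight PT gene. DESeq2 called 1, *Slc34a1*, also a convoluted PT gene. The median log2 change of the 60 was -0.08. Of the 6 other kynurenine enzymes 4 were tested. *Aldh8a1*, which oxidises the product of *Acmsd*, stood at 9.46 and 8.66 CPM against 14.6 and 17.6 CPM (log2 change -0.86, SE 0.20, adjusted p = 0.164). The mouse values were apart in the direction opposite to *Acmsd*. *Kyat3*, a second kynurenine aminotransferase, stood at 28.2 and 24.3 against 18.5 and 19.1 CPM (adjusted p = 0.417), *Kyat1* had a log2 change of 0.52 (SE 0.25) and *Got2* of -0.30 (SE 0.14).

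Of the 5 genes of lysine breakdown, where *Aadat* also acts, *Aass*, the enzyme of the first step, stood at 7.25 and 4.78 CPM against 1.73 and 1.31 CPM (log2 change 1.96, SE 0.41, adjusted p = 0.136). *Aldh7a1*, *Gcdh* and *Crym* had log2 changes of -0.00, 0.07 and -0.38. Of the 8 tested genes of NAD salvage, kinases and carrier, the most abundant were *Slc25a51*, the mitochondrial NAD carrier (log2 change -0.01, SE 0.12), *Pnp* (-0.42, SE 0.20), *Nmrk1* (-0.36, SE 0.13) and *Nadk* (0.03, SE 0.13). Among 13 tested NAD consumers, sirtuins and PARPs among them, none had an unadjusted p under 0.05, and the median log2 change was -0.07. The regulator *Hnf4a* had a log2 change of -0.08 (SE 0.12). Of the tryptophan transport genes, *Cltrn* stood at 726 and 631 against 600 and 694 CPM, whereas *Slc3a2* stood at 129 and 128 against 242 and 148 CPM, with mouse 3 again highest. *Slc7a8* stood at 53.1 and 48.8 against 79.8 and 63.4 CPM, both controls above both Trim28Δ/Δ mice (log2 change -0.51, SE 0.16, adjusted p = 0.318). The receptor *Ahr*, which kynurenines can bind, had a log2 change of 0.24 (SE 0.23) at 11.3 to 17.7 CPM.

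Of the 6 convoluted PT genes 0 were called by edgeR in PT-like cells, and 4 had an unadjusted p under 0.05, with lower values in Trim28Δ/Δ cells. In ErPT-like cells edgeR called *Slc34a1* (log2 change -1.32, adjusted p = 0.0234) and *Lrp2* (-1.07, adjusted p = 0.0272), beside 0.408% of all genes there. In PT-like cells *Slc34a1* stood at 726 and 600 against 1227 and 1054 CPM (log2 change -0.81, SE 0.14, adjusted p = 0.0825). *Slc5a2* stood at 8.55 and 6.61 against 17.5 and 12.2 CPM (log2 change -0.99, SE 0.27), *Slc5a12* at 25.5 and 24.03 against 37.3 and 37.3 CPM and *Lrp2* at 988 and 962 against 1165 and 1160 CPM. *Slc22a6* had a log2 change of -0.20 (SE 0.12). *Slc6a19*, an amino acid transporter on the same list, had higher values at 6.48 and 3.76 against 2.72 and 3.19 CPM (log2 change 0.75, SE 0.39, adjusted p = 0.610). Of the 7 straight PT genes 1, *Napsa*, had an unadjusted p under 0.05, with higher values in Trim28Δ/Δ cells. Within cluster 2 alone the log2 change of *Acmsd* was 2.14, beside 1.75 in the whole class. Markers of less mature cells were also counted in PT-like cells. The 6 early PT markers summed to 610 and 668 CPM against 559 and 600 CPM, and the 6 S-shaped body markers to 370 and 453 against 397 and 427 CPM. The 6 renal vesicle markers summed to 197 and 227 against 232 and 243 CPM and the 6 NPC markers to 38.6 and 33.8 against 50.6 and 63.9 CPM. Beside these, the 8 PT markers summed to 7582 and 6706 against 8981 and 7943 CPM, both Trim28Δ/Δ mice below both controls. *Slc34a1* and *Lrp2*, given above among the convoluted PT genes, are 2 of these 8, so the sum is not separate from them. Of the early PT markers 1 had its highest mean level in PT-like cells.

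*Acmsd* lies on chromosome 1 from 127729413 to 127767978 (GRCm38, GENCODE M21, plus strand). Of the genes with a start within 500000 bp of its own, 6 were tested in PT-like cells and 0 were called by edgeR, with 1 unadjusted p under 0.05. That gene, *Tmem163*, with its start at -242867 bp from that of *Acmsd*, stood at 0.259 and 0.683 CPM against 3.71 and 3.75 CPM (adjusted p = 0.0825), lower where *Acmsd* was higher. *Ccnt2*, whose start is 44751 bp after, had a log2 change of -0.19 (SE 0.19), and the others lay between -0.12 and 0.34.

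**Figure D4:**
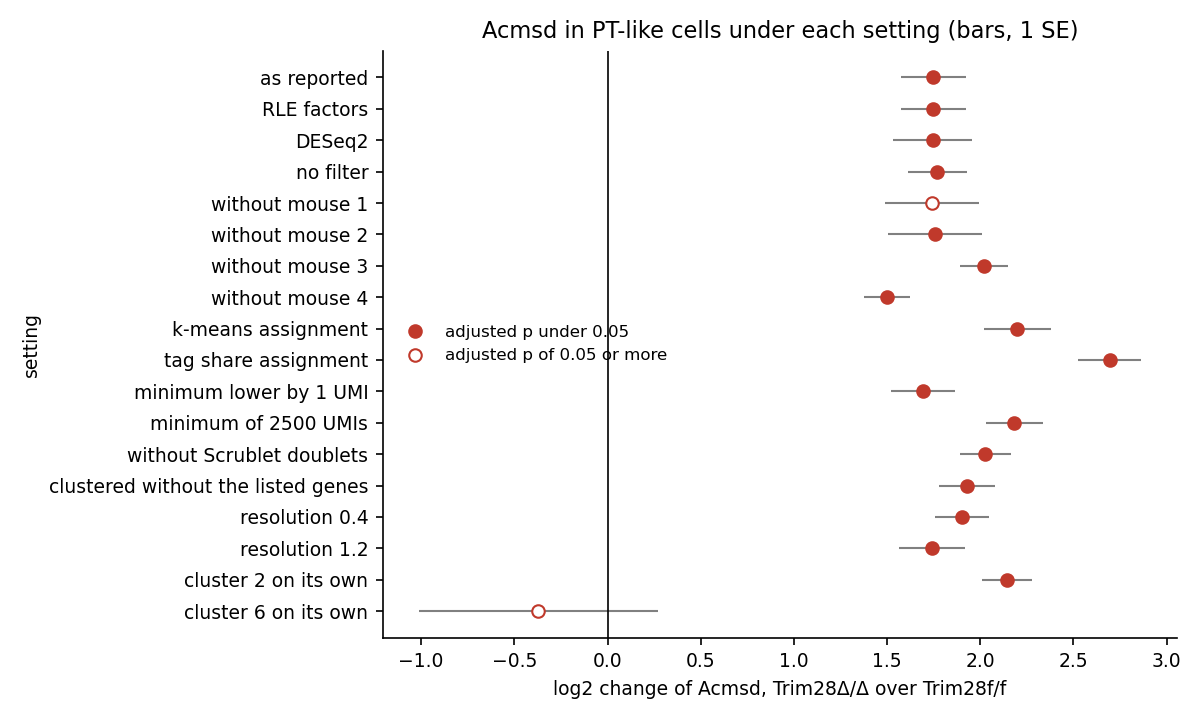
Log2 change of *Acmsd* in PT-like cells, Trim28Δ/Δ over Trim28f/f, under each setting, with bars of 1 SE and filled points for an adjusted p under 0.05. All points lie between 1.5 and 2.69 apart from cluster 6 on its own at -0.37.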

How the data were processed

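Libraries were made with the 3′ kit of 10x Genomics from 1 multiplexed pool. The deposited UMI counts per gene and barcode are raw. The matrix header names Cell Ranger 4, and the submitters' processing notes list Cell Ranger 6.0.0, R 4.1.0 and Seurat 4.0 on GRCm38. Of the 8 tag rows without a name in the tag list, 4 carried cells and served only to set those cells aside. They and the 6 bulk samples were not analysed here.

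Barcodes needed 6891 UMIs, 200 genes and no more than 10% mitochondrial UMIs (19272 left). HTODemux (Seurat 5.3.0, 8 tags) removed 4721 with several tags, 2680 with none and 4508 with unnamed tags. SCTransform 0.4.2, 30 components and resolution 0.8 gave clusters, named from marker lists. Scrublet (scanpy 1.11.5) marked 3.49% of cells, which were kept. UMIs were summed per mouse and class and tested with edgeR 4.0.16 (quasi-likelihood, filterByExpr, TMM, Benjamini-Hochberg, two-sided, 2 against 2 mice, at least 10 cells each); alternatives included DESeq2 1.42.0, each mouse left out and other assignments. For 1 value an exact permutation test of 2 against 2 cannot go below 0.333. The sources used here do not say whether litters were shared. Intervals cover counting error only.

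Members, lists and tests were chosen with earlier results of these data known. Named genes were all members, called list genes and up to 4 further genes per list with the highest PT-like CPM. *Slc5a2*, *Slc6a19*, *Ido1* and *Ido2*, outside that rule, the neighbours of *Acmsd* and the thinning were added after values were seen. Tested on simulated counts of 12454 genes, the PT-like fit recovered 100% of 4-fold and 33% of 2-fold changes. The changed genes all lay above the median level, and every gene was simulated with the same dispersion. The shares recovered do not cover genes that are lower or vary more between mice.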

Additional observations from a re-analysis of the deposited data

How the results depend on the processing

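*Acmsd* was called in 14 of 15 other settings of the whole PT-like class, with log2 changes of 1.5 to 2.69. Leaving out 1 mouse gave 1.5 to 2.02, and it reversed to -0.37 in cluster 6 on its own, where mouse 3 (20 cells) stood at 42.2 CPM and mouse 4 at 6.70 CPM, below both Trim28Δ/Δ mice. The number of members called was 1 in the fit as reported, beside 0.498% of all genes. It was 2 with no filter (*Aadat* added), beside 2.96% of all genes, and 0 in cluster 6 on its own, beside 0.307%. Over all genes, 62 calls became 108 with DESeq2, 580 with no filter, 98 with k-means assignment, 33 in cluster 6 and 9 (without mouse 1) to 1086 (without mouse 4) when 1 mouse was left out, 21 without mouse 2 and 275 without mouse 3; the cause was not tested. Among members without a call, the sign turned for *Afmid* without mouse 4 (-0.095, and 0.33 without mouse 3), for *Haao* without mouse 1 (-0.27), without mouse 4 (-0.47, and 0.75 without mouse 3) and in cluster 6 (-0.92), and for *Nadsyn1* with assignment by tag share (0.30), a minimum of 2500 UMIs (0.051) and cluster 2 on its own (0.13). *Haao* was highest, at 0.98, and *Afmid*, at 0.35, with assignment by tag share (adjusted p = 0.112 and 0.514). *Kynu*, *Nampt*, *Qprt* and *Aadat* kept their sign in all 17. The number of members highest in PT-like cells was 5 to 7, beside 6; it was 5 with assignment by tag share, where *Aadat* was highest in ErPT-like cells. Assignment by tag share and a minimum lower by 1 UMI were chosen after seeing the data. Few UMIs limit *Kmo* and *Tdo2*, which were fitted with no filter only, at log2 changes of 2.32 (SE 1.496) and 2.86 (SE 3.38). No paired analysis was possible because the mice of the pool carry different numbers, and the bulk samples, which share replicate numbers, were not analysed here.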
